A study of Homo sapiens with 6 samples.

Results

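The HOX genes of the HOXA, HOXB, HOXC and HOXD clusters were followed in SH-SY5Y cells, a human neuroblastoma line, after knockdown of TARDBP, which encodes an RNA-binding protein. Members were all gene rows whose symbol is HOXA, HOXB, HOXC or HOXD followed by a number only, which gave 39 of 27961 genes: 11 in HOXA, 10 in HOXB, 9 in HOXC and 9 in HOXD. The 6 RNA-seq libraries fall into 3 groups of 2. One group carried a hairpin against TARDBP (TRCN0000016038) and the others carried control hairpins SHC007 (control 1) and SHC016 (control 2). All 3 groups were spun for 1 h with virus and 8 µg/mL polybrene and then, from 48 h after infection, kept in 2 µg/mL puromycin for 3 days. Total RNA was depleted of ribosomal RNA and sequenced with a kit that keeps the strand. The knockdown rests on 1 hairpin, each library comes from a selected population rather than a clone, and the labels do not state if replicate libraries are separate cultures. The p-values therefore cover just the variation among these libraries, and this variation may be technical.

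HOX genes encode homeodomain transcription factors that give cells their position along the head-to-tail axis. Within a cluster the genes lie in order of paralogue number, and low-numbered genes are switched on earlier and closer to the head than high-numbered ones. Polycomb complexes keep clusters silent, Trithorax complexes keep them active, retinoic acid is a classical inducer, and the TALE proteins of the PBX, MEIS and PKNOX families bind DNA together with HOX proteins. In sympathetic neurons and neuroblastoma, HOXC and HOXD genes have been studied for their link to differentiation.

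The members resemble each other in sequence, which is shown here because reads from near-identical stretches can be hard to assign to 1 gene. The 42 bases below lie in the homeobox and encode the helix that reads DNA, for 5 of the 8 HOX genes with most counts. Capitals mark the 14 positions that differ among these 5 genes, and the sequences were taken 5′ to 3′ from GENCODE 29 transcripts.
HOXC4: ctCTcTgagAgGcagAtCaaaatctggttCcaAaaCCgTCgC
HOXC6: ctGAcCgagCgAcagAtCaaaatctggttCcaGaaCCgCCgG
HOXC9: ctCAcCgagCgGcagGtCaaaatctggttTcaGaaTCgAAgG
HOXD8: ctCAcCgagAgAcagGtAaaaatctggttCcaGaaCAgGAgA
HOXD9: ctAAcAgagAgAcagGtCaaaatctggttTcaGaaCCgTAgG
The longest exact run shared between the transcripts of HOXC4 and HOXC6 was 484 bases, and HOXC5 shared 305 bases with each of them. HOXD3 and HOXD4 shared 30 bases, and no pair from different clusters shared more than 27. Exons also overlap: 43.4% of the HOXC5 exon bases, 17.8% of those of HOXC4 and 15.7% of those of HOXC6 lie in exons of another gene on the same strand. For HOXD3 (62.2%) and HOXD4 (80.5%) the overlap was with the locus AC009336.2. On the opposite strand 58.1% of the HOXD1 exon bases are covered by other genes, among them the antisense gene HAGLR. HOXD10 shares 16.8% with HOXD11 on the same strand, and HOXC9 shares 4.35% on the same and 9.71% on the opposite strand. HOXD8, HOXD9 and HOXD13 overlapped no other exon. The sources used here do not state how shared or antisense reads were counted, so the values of HOXC4, HOXC5, HOXC6, HOXC9, HOXD1, HOXD3, HOXD4 and HOXD10 are uncertain to that extent.

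Libraries held 18605745 to 21698339 counts, of which 774 to 1345 fell in HOX genes. TARDBP checked the labels. It stood at 18.9 and 23.99 CPM (counts scaled to library size by the TMM method) with its hairpin, at 80.9 and 72.4 in control 1, and at 92.7 and 81.5 in control 2. The knockdown left 26.2% of the mean control level (log2 fold change −1.93, SE 0.13, edgeR adjusted p = 1.68e-05). Markers of noradrenergic neuroblastoma cells were present, with counts for all 11 genes and summed levels of 1039 to 1181 CPM with the TARDBP hairpin, 1912 to 2180 CPM in control 1 and 1460 to 1646 CPM in control 2. DBH and CHGA, a catecholamine enzyme and a granule protein, fell with the TARDBP hairpin against the mean of both controls. They were among 7 of 10 tested markers that fell (24.3% of all rows fell), while 1 of the 10 rose (23.9% of all rows rose). Against control 2 alone, 4 of the 10 fell and 1 rose (26.2% and 24% of all rows). Tyrosine hydroxylase (TH) had only 6 counts in all libraries together. Markers of the mesenchymal state summed to 2908 to 3175, 1715 to 2058 and 4499 to 4789 CPM in the same order of groups, and 8 of the 9 tested rose in control 2 against control 1 (22.8% of all rows rose). Fibroblast markers summed to 287 to 330, 1494 to 1508 and 1871 to 1995 CPM, and epithelial markers to 29.4 to 36.0, 10.8 to 15.3 and 82.8 to 133 CPM. Single markers did not all follow these sums. With the TARDBP hairpin against the mean of both controls, 2 of 8 tested fibroblast markers rose and 5 fell. Of 4 tested epithelial markers 1 rose and 1 fell, where 23.9% of all rows rose and 24.3% fell. Schwann cell markers stayed at 1.60 to 3.17 CPM, endothelial markers at 0.416 to 1.47 CPM and leukocyte markers at 0.561 to 1.32 CPM. The part of these markers in the HOX results was not tested, and in bulk RNA fewer cells of a type and less RNA per cell cannot be told apart.

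The HOXA and HOXB clusters were almost without reads. Of their 21 genes, 19 (90.5%) had no count in any library, against 18% of all gene rows. HOXA9, known for its role in blood progenitors, had 1 count in knockdown library 2, and HOXB6 had 1 count in library 2 of control 2. A count of 0 allows up to 3 counts, which is 0.141 to 0.158 CPM per library and covers counting error only. No HOXA or HOXB gene passed that floor in any library.

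Reads were confined to HOXC and HOXD except for those 2 counts. HOXC genes held 2515 counts and HOXD genes 3675. In all, 18 members had a count, 12 had one in each of the 6 libraries, and 11 passed the filter on low counts: HOXC4, HOXC5, HOXC6, HOXC9, HOXD1, HOXD3, HOXD4, HOXD8, HOXD9, HOXD10 and HOXD13. The 7 HOXC and HOXD genes that did not pass were HOXC8 (32 counts), HOXC10 (5), HOXC11 (0), HOXC12 (0), HOXC13 (8), HOXD11 (36) and HOXD12 (1). Within HOXC the reads lay at paralogues 4 to 6 and 9, and the high-numbered end was nearly empty. Within HOXD the peak was at paralogues 8 and 9.

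**Figure D1:**
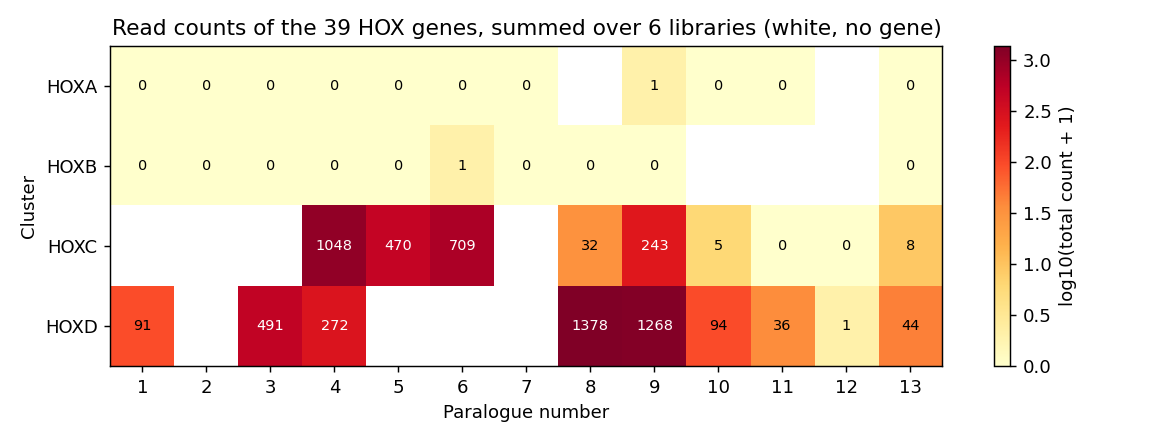
Total counts over the 6 libraries for each of the 39 HOX genes, drawn by cluster (rows) and paralogue number (columns). HOXA and HOXB hold 1 count each, and the highest totals are those of HOXD8 (1378), HOXD9 (1268) and HOXC4 (1048).

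Promoters are printed to set genes with different levels beside each other: HOXD3, which was read in all 6 libraries, HOXD13, which was near the detection limit in control 1, and HOXA9 from a cluster with 1 count in all. Each is the 250 bases before the transcription start in RefSeq (GRCh38.p14), 5′ to 3′ on the gene's strand, with every CpG (a C followed by a G) in capitals.
HOXD3 (chr2:176157057-176157306, plus strand): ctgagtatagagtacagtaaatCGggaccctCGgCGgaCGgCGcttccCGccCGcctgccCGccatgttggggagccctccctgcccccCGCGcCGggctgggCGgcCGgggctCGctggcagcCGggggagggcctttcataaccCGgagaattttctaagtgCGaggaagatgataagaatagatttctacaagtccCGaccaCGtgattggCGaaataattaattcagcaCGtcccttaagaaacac
HOXD13 (chr2:176092471-176092720, plus strand): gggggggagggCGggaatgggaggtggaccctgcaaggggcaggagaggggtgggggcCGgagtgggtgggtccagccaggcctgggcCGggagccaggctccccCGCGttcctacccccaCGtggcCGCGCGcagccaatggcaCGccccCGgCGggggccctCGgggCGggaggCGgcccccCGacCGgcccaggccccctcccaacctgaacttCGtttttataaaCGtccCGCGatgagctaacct
HOXA9 (chr7:27165538-27165787, minus strand): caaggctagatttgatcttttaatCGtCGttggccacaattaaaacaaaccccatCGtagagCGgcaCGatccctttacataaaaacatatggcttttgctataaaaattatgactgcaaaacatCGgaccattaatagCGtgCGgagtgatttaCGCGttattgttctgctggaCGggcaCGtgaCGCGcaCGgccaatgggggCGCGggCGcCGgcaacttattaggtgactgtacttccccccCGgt
These windows hold 21, 21 and 20 CpG sites. RefSeq promoters were matched for 20 of the 39 members, with a median of 20.5 CpG sites against 11 over all 35116 promoters in the table, and a median GC content of 59% against 58%. The 10 matched HOXA and HOXB genes had a median of 19.5 sites and the 8 matched genes that passed the filter had 21. HOXC4 and HOXC5 share the same promoter window in this table.

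HOXC4, the member of HOXC with most counts, stood at 8.38 and 8.47 CPM with the TARDBP hairpin, 6.78 and 7.64 CPM in control 1 and 11.2 and 10.4 CPM in control 2. The knockdown libraries lay between those of the controls, and no groups overlapped. HOXC5, whose locus also hosts a microRNA, stood at 5.02 and 4.73 CPM with the knockdown, 2.29 and 2.64 CPM in control 1 and 3.42 and 5.56 CPM in control 2. Control 1 was low, and the 2 libraries of control 2 fell on either side of the knockdown libraries. HOXC6, a gene of the forelimb-level spinal cord, stood at 8.38 and 7.17 CPM with the knockdown, 4.95 and 6.46 CPM in control 1 and 3.90 and 4.99 CPM in control 2. Both knockdown libraries lay above all 4 control libraries, while the controls overlapped each other. HOXC9, a thoracic gene linked to neuroblastoma differentiation, stood at 2.28 and 1.92 CPM with the knockdown, 2.45 and 2.45 CPM in control 1 and 1.37 and 1.79 CPM in control 2. The knockdown again lay between the controls with no overlap.

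HOXD3, an anterior gene of the cluster, stood at 4.55 and 5.77 CPM with the TARDBP hairpin, 2.35 and 3.13 CPM in control 1 and 4.21 and 4.81 CPM in control 2. Control 1 was below every other library, and the knockdown overlapped control 2. HOXD4, a hindbrain gene that responds to retinoic acid, stood at 1.71 and 2.39 CPM with the knockdown, 1.53 and 1.37 CPM in control 1 and 3.11 and 3.58 CPM in control 2. Control 2 was above every other library. HOXD8 stood at 11.7 and 11.2 CPM with the knockdown, 8.82 and 11.3 CPM in control 1 and 11.8 and 14.5 CPM in control 2, and the knockdown overlapped control 1. HOXD9, a gene of limb and lumbar levels, stood at 10.2 and 7.64 CPM with the knockdown, 8.51 and 10.7 CPM in control 1 and 12.4 and 14.3 CPM in control 2. Control 2 was above every other library for HOXD9 too.

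The remaining HOXD genes were sparse. HOXD1, studied in pain-sensing neurons, had 15 and 5 counts with the TARDBP hairpin, 21 and 22 in control 1 and 17 and 11 in control 2. The knockdown library with 5 counts was the lowest. HOXD10, a gene of hindlimb motor neurons, stood at 0.776 and 0.675 CPM with the knockdown, 0.408 and 0.637 CPM in control 1 and 1.16 and 1.08 CPM in control 2, so that control 2 was highest. HOXD13, the digit and genital gene at the end of the cluster, had 5 and 3 counts with the knockdown, 0 and 4 in control 1 and 12 and 20 in control 2. Most of its 44 counts came from control 2, and it passed the filter (a level of about 0.51 CPM in at least 2 libraries) only through control 2. A gene that enters in this way had to differ, so its differences from control 2 are given below as a description.

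**Figure D2:**
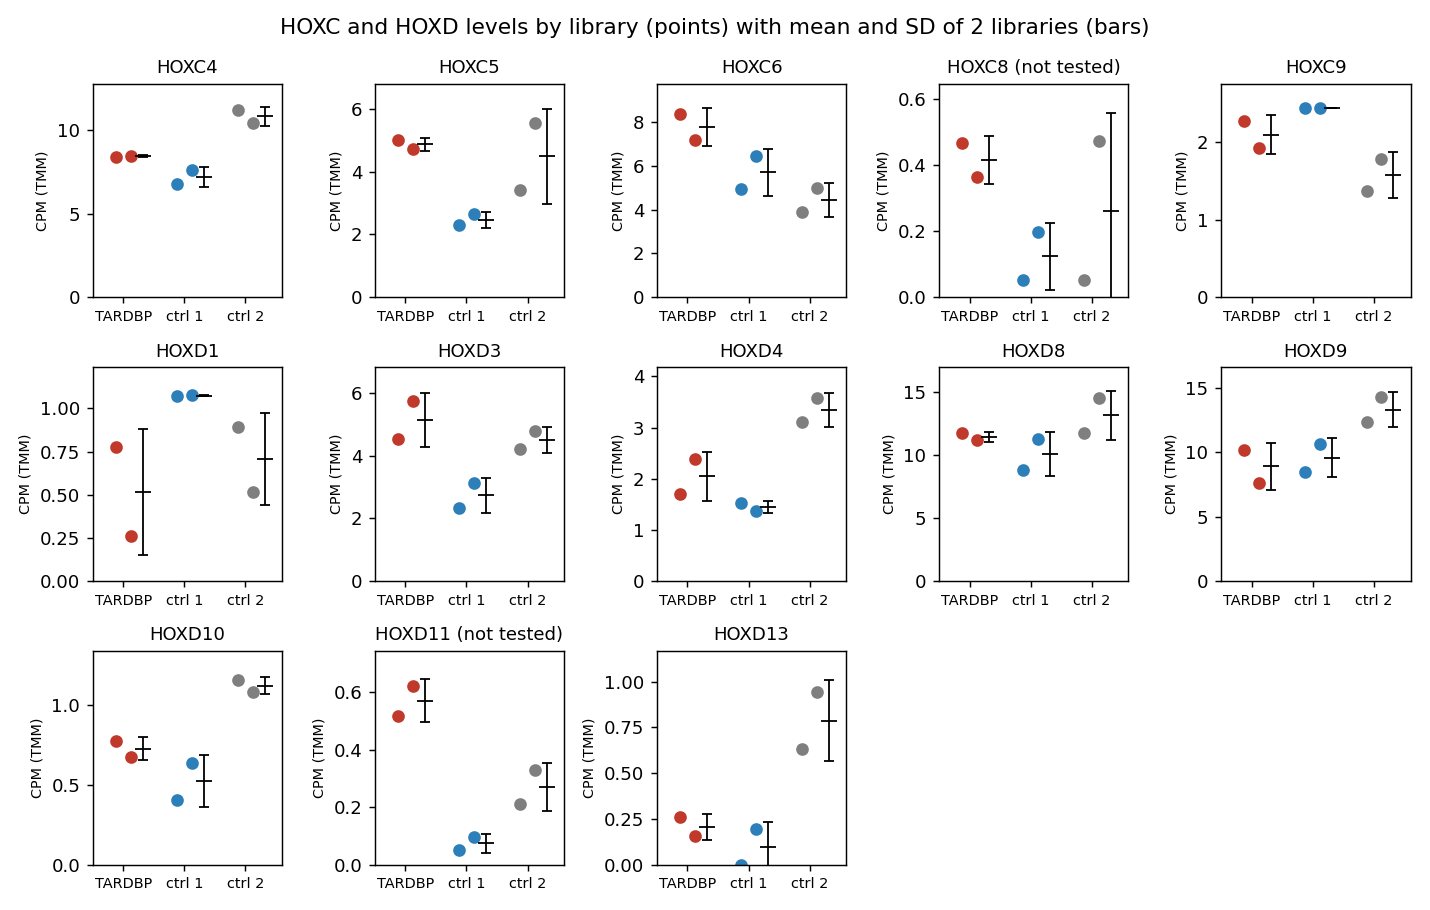
TMM-scaled CPM in each of the 6 libraries for the 13 HOX genes with at least 20 counts, including HOXC8 and HOXD11, which did not pass the filter. Each point is 1 library, coloured by hairpin, with the mean and SD of the 2 libraries as bars beside them. For HOXC6 and HOXD11 both TARDBP hairpin points lie above the control points. For HOXC4, HOXD4, HOXD8, HOXD9, HOXD10 and HOXD13 both control 2 points lie above the rest, narrowly for HOXD8 (11.79 against 11.74 CPM).

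Levels can be compared between genes only per length, and CPM was divided by the kilobases of merged exons for this. HOXD9 led with a mean of 5.68 CPM per kb (4.08 to 7.66 over the libraries), followed by HOXD8 with 4.40 (3.35 to 5.52) and HOXC4 with 3.23 (2.49 to 4.11). HOXC5 (1.87), HOXC6 (1.69), HOXD4 (1.56), HOXC9 (1.22) and HOXD3 (1.17) formed the middle of the order. Each of these genes overlapped its neighbour in the order when all libraries were compared. HOXD1 (0.388, range 0.131 to 0.545) lay below HOXD3 (0.661 to 1.62) without overlap. HOXD1, HOXD10 (0.293) and HOXD13 (0.163) overlapped in turn.

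Against the mean of both controls, 2 HOX genes rose with the TARDBP hairpin, none fell, and 9 did not pass. HOXC6 rose 1.54-fold (95% interval 1.17 to 2.03, log2 fold change 0.62, SE 0.17, edgeR adjusted p = 0.0176). HOXD3 rose 1.47-fold (interval 1.09 to 1.97, log2 fold change 0.55, SE 0.19, adjusted p = 0.0391), although its knockdown libraries overlapped those of control 2. The 2 of 11 called genes are 18.2%, against 48.2% of all 17163 rows tested, 23.9% higher and 24.3% lower, so the share called was below the background. HOXC6 was the 1 tested HOX gene whose knockdown libraries did not overlap the 4 controls, while 46.1% of all rows did not overlap. The median log2 fold change of the 11 genes was −0.07, against 0.04 over all rows.

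HOXC5 had a log2 fold change of 0.54 (SE 0.22, adjusted p = 0.0668) and HOXD9 one of −0.35 (SE 0.17, adjusted p = 0.119). For HOXD8, the HOX gene with most counts, the fold was 0.995 with a 95% interval of 0.787 to 1.26, and for HOXC4 it was 0.954 with an interval of 0.781 to 1.17. The values were 0.09 for HOXC9, −0.11 for HOXD4, −0.08 for HOXD10, −0.45 for HOXD13 and −0.73 for HOXD1 on the log2 scale. HOXD1 and HOXD13 had wide intervals, 0.291 to 1.24-fold and 0.207 to 2.6-fold. By cluster, 1 of 4 tested HOXC genes and 1 of 7 tested HOXD genes rose, with medians of 0.32 and −0.11. Neither call belonged to paralogues 9 to 13, of which 4 were tested.

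The HOXC6 call was lost without knockdown library 1 (adjusted p = 0.113), without library 1 of control 2 (0.0540) and with the 4 controls pooled as 1 group (0.124). The HOXD3 call was lost without knockdown library 2 (adjusted p = 0.259), library 1 of control 1 (0.101), library 1 of control 2 (0.102) or library 2 of control 2 (0.0719), and also in DESeq2 (0.132), with no count filter (0.0510) and with pooled controls (0.313).

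Taken against control 1 alone, HOXC5 and HOXD3 rose with the TARDBP hairpin and no HOX gene fell. HOXC5 rose 1.97-fold (log2 fold change 0.98, SE 0.26, edgeR adjusted p = 0.0166) and HOXD3 rose 1.88-fold (0.91, SE 0.23, adjusted p = 0.0120). HOXC6 was 1.36-fold the control 1 level with an adjusted p of 0.109. These 2 of 11 genes compare with 42.9% of all rows called, 21.1% higher and 21.8% lower, and the HOX median was 0.44 against 0.03. Knockdown libraries lay above both control 1 libraries for 6 HOX genes (HOXC4, HOXC5, HOXC6, HOXD3, HOXD4 and HOXD10) and below them for HOXC9 and HOXD1, while over all rows 37.4% lay above and 34.5% below, 71.9% together. All 5 tested genes of paralogues 4 to 8 had a positive value, from 0.19 for HOXD8 to 0.98 for HOXC5. The HOXC5 call was lost without knockdown library 1 (adjusted p = 0.0607), library 1 of control 1 (0.0906) or library 2 of control 1 (0.0516), and the HOXD3 call without knockdown library 2 (0.0695) or library 1 of control 1 (0.0820). Among the fits run, HOXD1 passed the threshold as lower only with knockdown library 1 left out (log2 fold change −2.03, adjusted p = 0.0393).

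Against control 2 alone the picture was mixed: HOXC6 rose, HOXD4 and HOXD9 fell, and HOXD13 was lower by description only. HOXC6 rose 1.74-fold (log2 fold change 0.80, SE 0.21, edgeR adjusted p = 0.0123). HOXD4 fell to 61.2% of control 2 (−0.71, SE 0.25, adjusted p = 0.0414) and HOXD9 to 66.7% (−0.58, SE 0.19, adjusted p = 0.0306). HOXD13 stood at 26.7% (−1.90, SE 0.67). It is counted as lower with HOXD4 and HOXD9, but entered the test only through the high level of control 2, so its fall is a description. Background was 50.2% of all rows, 24% higher and 26.2% lower, and 4 of 11 HOX genes were called with HOXD13 included. The HOX median was −0.36 against 0.02 over all rows, −0.58 for the 7 HOXD genes and 0.26 for the 4 HOXC genes. HOXC4 (−0.36, adjusted p = 0.0656) did not pass.

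Knockdown libraries lay below both control 2 libraries for HOXC4, HOXD4, HOXD8, HOXD9, HOXD10 and HOXD13 and above them for HOXC6 and HOXC9, against 76.3% of all rows without overlap. The HOXC6 call was lost without knockdown library 1 (adjusted p = 0.0586) or library 1 of control 2 (0.0844). The HOXD9 call was lost without knockdown library 2 (0.167) or library 2 of control 2 (0.138) and with a replicate block (0.0505). HOXD13 lost its call without either knockdown library (0.0886 and 0.180) and without either control 2 library (0.0660 and 0.202), and also in DESeq2 (0.145), with no count filter (0.0607) and with the block (0.0582). HOXD4 lost its call without knockdown library 1 (0.200), either library of control 1 (0.0584 and 0.0577) or either of control 2 (0.0777 and 0.167), in DESeq2 (0.148), in gene rows only (0.0557) and with the block (0.0575).

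Between the 2 control hairpins 6 HOX genes were called, against 2 and 4 in the comparisons of the TARDBP hairpin with each of them. HOXD13, which entered only through control 2, is counted in the 6 and in the 4. HOXC4, HOXC5, HOXD3, HOXD4, HOXD10 and HOXD13 rose in control 2 against control 1, and none fell. HOXD4 rose 2.31-fold (log2 fold change 1.21, SE 0.26, edgeR adjusted p = 0.00634), and this call alone of the 14 HOX calls in the 4 comparisons was kept under every alternative. HOXD13 was 7.53-fold higher with a 95% interval of 2.24 to 25.4, on 0 and 4 counts in control 1. It is counted among the calls, but it passed the filter only through control 2, so its rise is a description. Its log2 value of 2.91 became 1.98 without library 1 of control 1, and 6.98 without library 2 of control 1, where control 1 was left at 0 counts and the fitted value does not measure the size. HOXD10 rose 2.12-fold (adjusted p = 0.0410), HOXC5 1.82-fold (0.0279), HOXD3 1.64-fold (0.0336) and HOXC4 1.50-fold (0.0123). With HOXD13 included, the 6 of 11 genes are 54.5%, against 43.2% of all rows called, 22.8% higher and 20.4% lower. The median of the 11 genes was 0.58 against −0.01 over all rows. By cluster, 2 of 4 HOXC and, with HOXD13 included, 4 of 7 HOXD genes were called.

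HOXD9 (0.48, adjusted p = 0.0685) and HOXD8 (0.39, adjusted p = 0.0979) had positive log2 values in the same direction, and HOXC9 (−0.62, adjusted p = 0.0766), HOXD1 (−0.61, 0.319) and HOXC6 (−0.36, 0.203) negative ones. Libraries of control 2 lay above those of control 1 for 8 HOX genes and below them for HOXC9 and HOXD1, against 37% of all rows above and 37.8% below, 74.8% together. HOXC4 lost its call without library 1 of control 1 (0.0830) or library 1 of control 2 (0.0685). HOXC5 lost it without library 1 (0.139) or library 2 (0.0669) of control 1 or library 2 of control 2 (0.230), and HOXD13 without library 1 of control 1 (0.0777) or library 2 of control 2 (0.101). HOXD3 lost it without library 1 of control 1 (0.194) or either library of control 2 (0.0682 and 0.160) and in DESeq2 (0.0817). HOXD10 lost it without each of the 6 libraries in turn (0.0584 to 0.231), in DESeq2 (0.215), with no count filter (0.0575) and with the replicate block (0.0655). The 4 comparisons share libraries, so their values are set side by side and were not correlated.

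**Figure D3:**
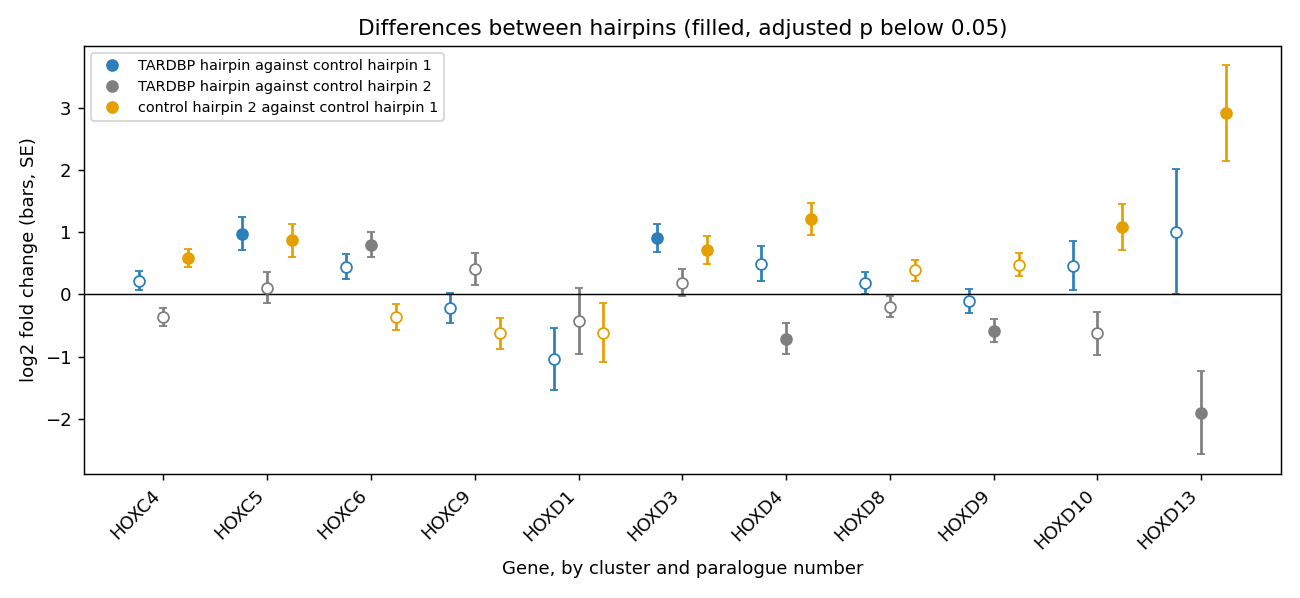
Log2 fold change with its standard error for the 11 HOX genes tested, in the comparisons of the TARDBP hairpin with control 1, of the TARDBP hairpin with control 2 and of control 2 with control 1. Filled points had an adjusted p below 0.05; HOXD13 spans the widest range, from −1.90 to 2.91.

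The mean of the knockdown libraries lay between the 2 control means for 6 of the 11 tested HOX genes (54.5%: HOXC4, HOXC9, HOXD4, HOXD8, HOXD10 and HOXD13), above both for HOXC5, HOXC6 and HOXD3, and below both for HOXD1 and HOXD9. Over all rows tested, 30% lay between the controls, 36.8% above and 33.3% below.

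Summed over a cluster, HOXC genes reached 24.5 and 23.0 CPM with the TARDBP hairpin, 16.7 and 19.5 CPM in control 1 and 20 and 23.2 CPM in control 2 (means 23.7 ± 1.11, 18.1 ± 1.96 and 21.6 ± 2.28, SD, n = 2 each). The knockdown lay above control 1 and overlapped control 2, although scaling by raw library totals left it just above control 2 (22.9 against 22.7 CPM for the nearest libraries). HOXD genes reached 30.5 and 28.7 CPM with the knockdown, 22.7 and 28.5 CPM in control 1 and 34.4 and 40.1 CPM in control 2 (means 29.6 ± 1.27, 25.6 ± 4.08 and 37.2 ± 4.04). For HOXD the knockdown lay below control 2, while its distance from control 1 (28.7 against 28.5 CPM for the nearest libraries) was lost with raw totals (28.7 against 29.2) and with RLE size factors (28.4 against 28.5). HOXC6 supplied 34.2% and 31.2% of the HOXC counts with the knockdown, 29.6% and 33.2% in control 1 and 19.5% and 21.5% in control 2. HOXC4 supplied 34.2% and 36.9%, 40.6% and 39.2%, and 56.1% and 44.8% in the same order. HOXD8 kept 34.3% to 39.7% of the HOXD counts in every library.

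**Figure D4:**
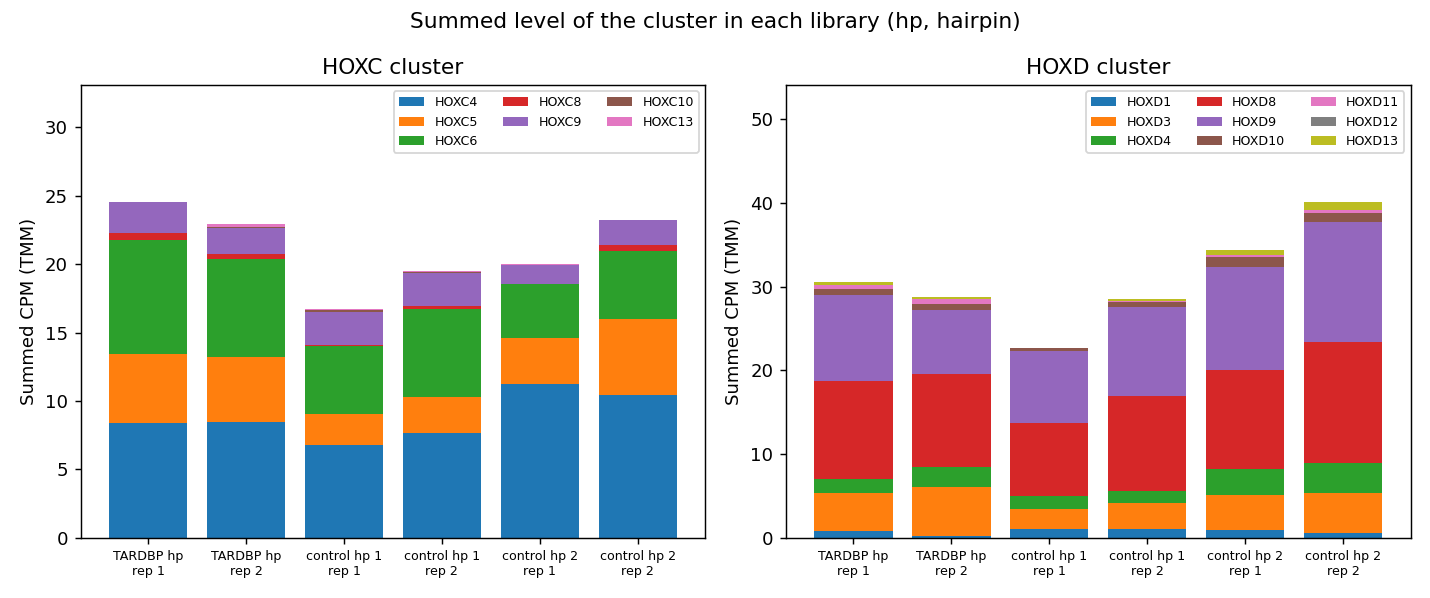
Summed TMM-scaled CPM of the HOXC and HOXD genes in each library, stacked by gene. The HOXD bars of control 2 (34.4 and 40.1 CPM) are the highest, and the HOXC bars of control 1 (16.7 and 19.5 CPM) the lowest of their cluster.

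HOXC8 and HOXD11 lay just under the filter. HOXD11, a limb gene, had 10 and 12 counts with the TARDBP hairpin, 1 and 2 in control 1 and 4 and 7 in control 2, so that both knockdown libraries were above all controls. Without the filter its log2 fold change against the mean of both controls was 1.92 (SE 0.51, edgeR adjusted p = 0.0179), against control 1 it was 2.80 (SE 0.69, adjusted p = 0.0137) and against control 2 it was 1.04 (adjusted p = 0.172). HOXC8, a gene of forelimb motor pools, had 9 and 7 counts with the knockdown, 1 and 4 in control 1 and 1 and 10 in control 2, and no comparison passed (against the mean, log2 fold change 1.13, SE 0.74, adjusted p = 0.290).

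The noncoding RNAs of the HOX clusters were mostly unread. Of 23 in the files, 15 had no count, among them HOTAIR, HOTTIP and HOTAIRM1, and 3 passed the filter. HAGLR, which is antisense to HOXD1, stood at 8.59 and 9.09 CPM with the TARDBP hairpin, 9.58 and 10.0 CPM in control 1 and 3.26 and 4.90 CPM in control 2. Against the mean of both controls, where 48.2% of all rows were called, it rose (log2 fold change 0.48, SE 0.17, edgeR adjusted p = 0.0415) and against control 2 (1.11, adjusted p = 0.00245), but had a value of −0.15 (adjusted p = 0.545) against control 1. It fell in control 2 against control 1 (−1.26, adjusted p = 0.00163), a comparison in which none of the 7 tested HOXD genes was called lower. HOXD1 had a negative value there too (−0.61, adjusted p = 0.319), while the other 6 had positive ones. FLJ12825, a noncoding transcript of the HOXC cluster, stood at 0.879 and 0.675 CPM with the knockdown and at 0.102 to 0.441 CPM in the controls, so that it passed the filter only through the knockdown. Its values of 1.31 against the mean (SE 0.47), 1.48 against control 1 and 1.14 against control 2 are therefore a description. The threshold was passed against the mean but not against either control alone. HOXD-AS2 had a value of −0.02 against the mean and rose in control 2 against control 1 (1.50, adjusted p = 0.00885).

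The TALE cofactors examined were all expressed, and against the mean of both controls 1 of 8 rose and 3 fell, near the background of 48.2% of all rows called, with a median of −0.34. MEIS2, the one with most counts, stood at 153 and 158 CPM with the TARDBP hairpin, 297 and 265 CPM in control 1 and 177 and 171 CPM in control 2, and fell by 0.51 on the log2 scale (SE 0.08, edgeR adjusted p = 0.00115). PKNOX2, the 1 counted as rising, was higher by 1.80 (SE 0.38), with both knockdown libraries (1.04 and 0.831 CPM) above all 4 controls (0.153 to 0.424 CPM). It passed the filter only through the knockdown, so its rise is a description. MEIS3 (−0.41, adjusted p = 0.00524) and PBX3 (−0.42, adjusted p = 0.00850) fell. The 3 falls against the mean were not all called against each control. Against control 1 alone 2 of the 8 rose and 3 fell (42.9% of all rows called), and against control 2 alone 1 rose and 1 fell (50.2%). Between the controls 2 rose and 3 fell, where 43.2% of all rows were called, 22.8% higher and 20.4% lower. MEIS1 (0.91, adjusted p = 4.07e-04) and PBX3 (0.34, 0.0379) were higher in control 2, and MEIS2 (−0.69, 6.59e-04), PKNOX1 (−0.40, 0.0264) and MEIS3 (−0.28, 0.0485) lower.

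**Figure D5:**
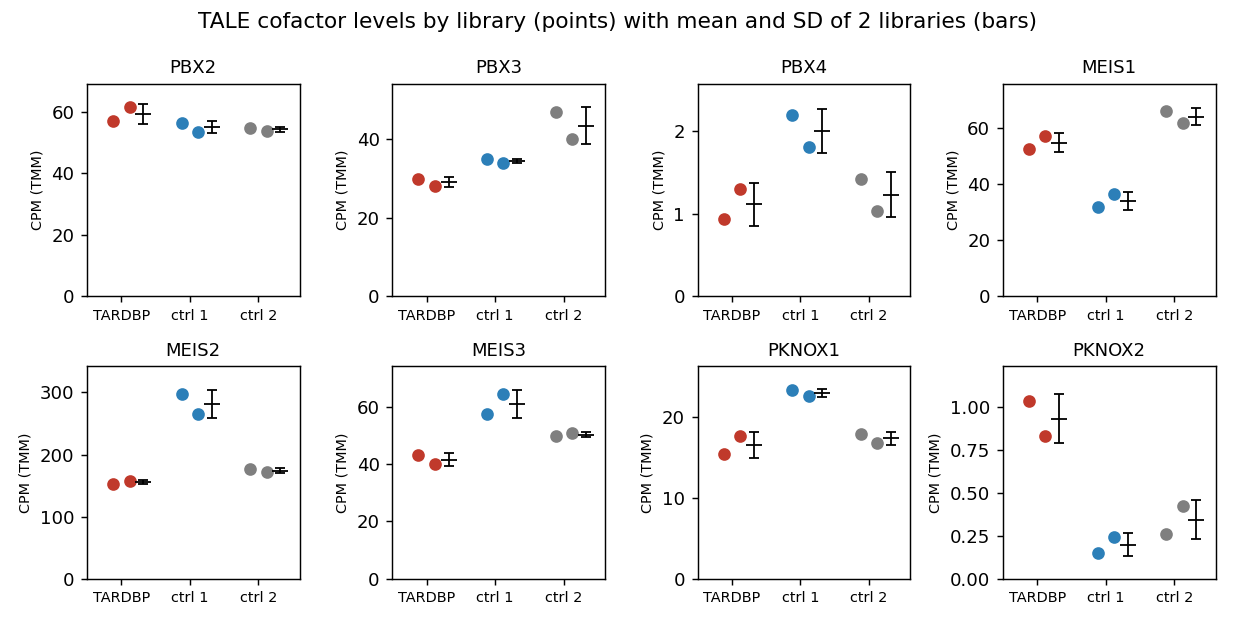
TMM-scaled CPM of the 8 TALE cofactors in each library, 1 point per library, coloured by hairpin, with the mean and SD of the 2 libraries as bars beside them. For PKNOX2, which passed the filter only through the knockdown, both TARDBP hairpin points lie above all control points, and for MEIS2 they lie below them.

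For the chromatin regulators of the HOX clusters the background was again 23.9% of all rows higher and 24.3% lower. Of 32 Polycomb genes, 8 rose and 11 fell against the mean of both controls, with a median of 0.06. The 4 with the lowest p were CBX2 (log2 fold change −1.67, edgeR adjusted p = 1.2e-05), which reads the Polycomb histone mark, PHF19 (−1.74, 7.1e-05) and AEBP2 (0.81, 1.26e-04), accessory subunits of the methylating complex, and RBBP4 (−0.55, 5.4e-04), a histone-binding subunit. Between the controls 7 rose and 7 fell in control 2, near the 22.8% of all rows that rose and the 20.4% that fell there. Of 25 Trithorax and demethylase genes, 5 rose and 7 fell, close to the 48.2% of all rows called, with a median of −0.04. DOT1L (−1.28, adjusted p = 2.2e-05), a histone methyltransferase, and KDM6B (−0.96, 4.6e-05), which removes the Polycomb mark, fell. ASH1L (0.58, 2.56e-04) and KMT2A (0.55, 8.03e-04), the methyltransferase known for keeping HOX genes active, rose, as did MLLT1 (0.45), KANSL1 (0.30) and KDM6A (0.31). In control 2 against control 1, 1 of these 25 genes rose and 9 fell, beside the same shares of all rows (22.8% and 20.4%).

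Of 15 tested retinoic acid genes, 3 rose and 3 fell against the mean of both controls, where 48.2% of all rows were called, with a median of 0.16. The receptors RARA (log2 fold change 0.82, edgeR adjusted p = 5.66e-04) and RXRA (0.56, 0.00309) and the binding protein CRABP1 (0.87, 0.00583) rose. STRA6 (−0.96, 0.00141), which takes up retinol, ALDH1A3 (−0.97, 7.11e-04), which makes retinoic acid, and RARG (−0.55, 0.0255) fell. Between the controls 5 rose and 1, ALDH1A3, fell in control 2, where 43.2% of all rows were called, 22.8% higher and 20.4% lower.

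Of 13 ParaHox, EVX, MEOX and GBX genes, relatives of the HOX family, 8 had no count and GBX2, a gene of the anterior hindbrain, was the only one to pass the filter. It had 29 and 38 counts with the TARDBP hairpin, 0 and 0 in control 1 and 40 and 44 in control 2, and passed the filter without control 1. The knockdown was at least 11.6-fold and control 2 at least 13.9-fold higher than control 1, taking 3 counts per library as the floor for control 1 (a mean of 0.150 CPM). Against control 2 the knockdown had a log2 fold change of −0.27 (edgeR adjusted p = 0.464).

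Of 17 tested genes that flank the clusters, 3 rose and 5 fell against the mean of both controls, a share near the background of 48.2%, with a median of 0.02. SNX11 beside HOXB (log2 fold change −0.90, edgeR adjusted p = 1.79e-04), ATP5MC3 near HOXD (−0.89, 0.00121), JAZF1 near HOXA (−1.06, 0.00130), SMUG1 (−0.40) and HIBADH (−0.38) fell. TAX1BP1 near HOXA (0.64, 2.77e-04), CBX5 near HOXC (0.41, 0.00695) and CALCOCO2 near HOXB (0.41, 0.00771) rose. Between the controls the share called was larger: 6 of the 17 rose and 6 fell in control 2, where 22.8% of all rows rose and 20.4% fell. Against control 2 alone 4 rose and 7 fell with the TARDBP hairpin, where 24% of all rows rose and 26.2% fell. JAZF1 (4.10 to 10.8 CPM) and TAX1BP1 (105 to 201 CPM), near the HOXA cluster with its 1 count, were expressed in every library.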

How the data were processed

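Counts per gene and per repeat subfamily were deposited by the authors as raw whole numbers, 1 file per library, per the file headers. The submitters' processing notes name bcl2fastq, STAR 2.5.2b and genome build hg19. The read counter, its annotation and its strand rule were not given in the sources used here. HOX rows were taken by symbol, and the members and lists were chosen with earlier results of these data known.

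All 28953 rows (27961 genes and 992 repeat subfamilies) of the 6 libraries entered R 4.3.3. The filterByExpr function, given the 3 groups with minimum counts of 10 per library and 15 in total, kept 17163 rows. After TMM scaling, edgeR 4.0.16's quasi-likelihood model was fitted to the 3 groups, leaving 3 residual degrees of freedom. Benjamini-Hochberg adjustment covered all 17163 rows, and genes were called below an adjusted p of 0.05. Standard errors (SE) were derived from the log2 fold change and its F statistic. The fitting code was tested on simulated counts. Alternatives were RLE size factors, DESeq2 1.42.0, no filter, gene rows only, a replicate block, pooled controls and each library left out in turn.

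All HOX genes passing the filter were named, with each library's value where the mean reached 1 CPM or a call was made; untested members are given by their counts. From each list other than the cell markers, the 4 called members with the lowest p against the mean of both controls were named. All members of counts of 5 or fewer in that comparison were named too. The untested HOXC8 and HOXD11, the sequences shown and the position of means between the controls were chosen after values were seen. Gene lengths, overlaps and coding sequences came from GENCODE 29 (GRCh38), and promoters from RefSeq (GRCh38.p14). Counts on hg19 were matched to them by symbol only. A few list genes and sequences are not reported here, and the list counts leave them out.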

Additional observations from a re-analysis of the deposited data

How the results depend on the processing

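Another size factor method (RLE) changed no HOX call, and group means of cluster sums moved by less than 1 SD under both other scalings, though the overlap of libraries changed. The 2 HOX genes higher against the mean of both controls became 1 in DESeq2 and 0 with pooled controls. The 3 lower against control 2, with HOXD13 included, became 1 in DESeq2. With each library left out in turn, the number higher against the mean was 1 to 3, higher against control 1 it was 0 to 3, lower against control 1 it was 0 to 1, higher against control 2 it was 0 to 1, lower against control 2 it was 0 to 2, and higher in control 2 against control 1 it was 1 to 6. A group left with 1 library was assumed to vary like the others, and 13 of the 14 calls were lost in at least 1 of these fits. The filter was applied anew when a library was left out and kept 11 or 12 HOX genes, so the ranges can include a gene outside the 11 tested. The causes were not tested.

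The replicate number was also fitted as a block. No label says that it pairs libraries, and the correlations of replicate 1 deviations were −0.228, −0.247 and 0.232. With the replicate block, the number lower against control 2 became 0, the number higher against the mean remained at 2, and HOXD8 against the mean turned from −0.01 to 0.0036.

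Signs turned only for values that had not passed. Gene rows alone gave 0.0204 for HOXD8 against the mean. Over the fits that left out 1 library, values against the mean ran from −0.0398 to 0.21 for HOXC9, −0.37 to 0.11 for HOXD4, −0.10 to 0.0809 for HOXD8, −0.22 to 0.0931 for HOXD10 and −0.92 to 1.58 for HOXD13. They ran from −0.33 to 0.0835 for HOXD9 against control 1, and from −0.19 to 0.47 for HOXC5 and −1.41 to 0.15 for HOXD1 against control 2. HOXD13 (44 counts) and HOXD1 (91 counts) had the largest standard errors of the 11 genes against the mean (0.80 and 0.46), while HOXD10 (94 counts) had 0.33.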
